A study of Homo sapiens with 12 samples.

Results

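Gene expression of the human hepatocellular carcinoma line Hep3B after treatment with DAAD2 is described here on the 6 Hep3B arrays of a series of 12. The labels give 3 arrays of cells kept for 72 h in 2 μM DAAD2 and 3 arrays of cells kept as long in 0.1% DMSO, the vehicle, and every one of these arrays was used. DAAD2 (DAAD-2 in the labels) is a derivative of dehydroabietylamine, and the study calls Hep3B sensitive to it. The other 6 arrays hold SNU449, a line called resistant, with 20 μM DAAD2 or 0.1% DMSO, and serve below for one comparison. Total RNA was measured on Affymetrix U133 Plus 2.0 arrays, on which a gene is read by 1 or more probe sets of short probes, so that several probe sets of a gene give separate readings of it. Hep3B is 1 established line, and no label tells whether replicate arrays stem from separate cultures, so p-values measure the spread between these arrays, which may be technical.

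Hep3B still makes many proteins that hepatocytes secrete, such as albumin, apolipoproteins, complement and clotting factors. Liver cells and tumours derived from them also carry general responses to damaged or misfolded protein, in which heat shock factor switches on cytosolic chaperones and sensors of the endoplasmic reticulum switch on lumenal ones. Several chemokines of the CXC family are secreted proteins that attract neutrophils, and their genes are classical targets of NF-κB.

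The labelled cell type was borne out by its markers: albumin (ALB) stood at log2 levels of 14.53, 14.56 and 14.50 on the DMSO arrays and 14.50, 14.45 and 14.47 on the DAAD2 arrays, near the top of the scale. Of 10 hepatocyte identity markers all 10 lay above the array median on all 6 arrays. Of 11 markers of leukocytes and endothelium 4 did so, with list medians of 3.71 to 3.83 on the DMSO arrays and 3.64 to 3.69 on the DAAD2 arrays, and of 12 mesenchymal markers 5, with medians of 3.88 to 4.11 and 3.64 to 3.88; the array median was 3.75. Array medians lay between 3.71 and 3.79, and the standard deviation over probe sets was 2.09 to 2.10 on the DMSO arrays and 2.14 to 2.19 on the DAAD2 arrays, which do not overlap. For GAPDH the 3′ control probe set read 0.45 to 1.51 log2 units above the 5′ one with DMSO and 0.48 to 1.05 with DAAD2. For ACTB the gap was wider, 2.73, 1.93 and 2.90 on the DMSO arrays and 2.29, 2.49 and 3.27 on the DAAD2 arrays. RNA quality was thus uneven between arrays by this measure. Pearson's r between arrays was 0.989 to 0.993 within the DMSO group, 0.993 to 0.995 within the DAAD2 group and 0.985 to 0.993 between the groups.

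After DAAD2 the 6 largest differences to a higher level among the named genes were those of CXCL5, TUBA1A, CXCL8, HDAC9, CXCL6 and PRSS23, and the 6 largest to a lower level those of APOM, MEP1A, SLC22A7, KCNMA1, S100A9 and ANPEP. No probe set passed an adjusted p under 0.05 in limma, 0 higher and 0 lower of 54613 (0% each way), although 5202 higher and 2989 lower ones had an unadjusted p under 0.05 and the lowest adjusted p was 0.0535. Genes are therefore described by 2 limits together, a fold over 1.5 and an unadjusted limma p under 0.05, which 775 probe sets passed on the higher side (1.42%) and 110 on the lower side (0.201%). Counted once per gene, through its brightest probe set, 326 of 19775 genes were higher (1.65%) and 65 lower (0.329%) past both limits. Every DAAD2 array lay above every DMSO array on 11% of probe sets and below on 9.99%, and with 3 arrays a side the smallest two-sided p of an exact permutation test is 0.1. Differences over 4-fold occurred on 3 probe sets, those of CXCL5, TUBA1A and CXCL8, all of them higher.

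How many probe sets pass an adjusted p depends on how their spread is estimated and how the arrays are scaled. With all 12 arrays in 1 fit 154 were called, with a trend of the spread on the level 137 and after median centring of the arrays 77. Quantile normalization and cyclic loess each gave only 1 higher and 4 lower, and without moderation 0 were called. A set of 45 was called under all 3 of the settings with the most calls, 36 of them higher and 9 lower. The 9 lower ones read APOM and SMLR1 by both of their probe sets and MEP1A, ANPEP, NYNRIN, DLK1 and DUSP6 by 1 each. Among the higher ones were probe sets of CXCL5, HSPH1, HSPA4L, BAG3, CEP15 and MAP3K20, the last with 2.

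**Figure D1:**
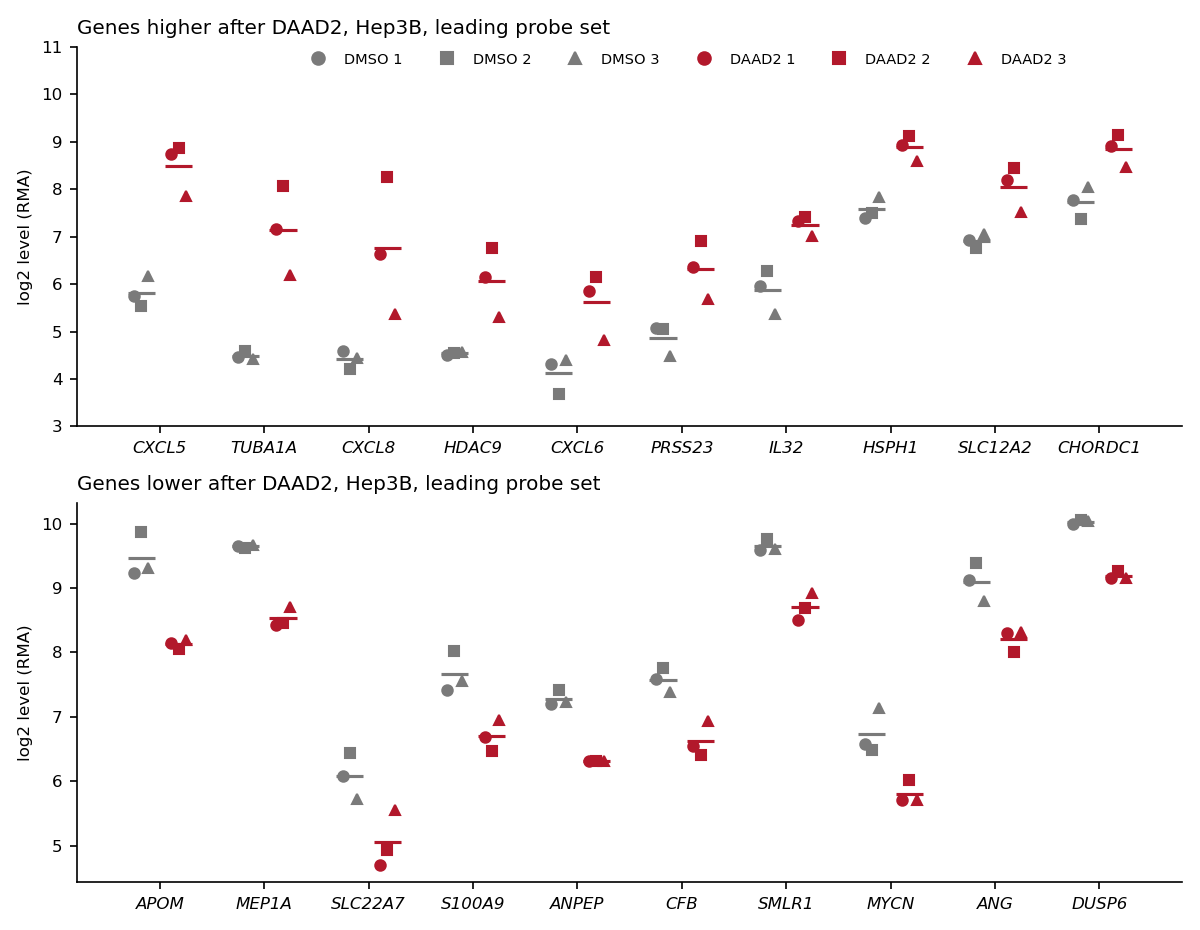
Log2 levels of 10 genes higher (top) and 10 genes lower (bottom) after DAAD2 on each of the 6 Hep3B arrays, grey for DMSO and red for DAAD2, with a symbol per replicate number and a bar at the group mean; a shared number does not pair arrays. In each gene the groups do not overlap, since the rule that named most of these genes asks for it, and among the higher genes DAAD2 array 2 tends to lie highest and array 3 lowest.

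The chemokine gene CXCL5 stood at 5.74, 5.53 and 6.17 on the DMSO arrays and 8.74, 8.88 and 7.86 on the DAAD2 arrays. The lowest DAAD2 value was 1.69 log2 units above the highest DMSO value, a gap wider than the range within either group. The difference of 2.68 (standard error 0.27, 95% interval 2.07 to 3.29, adjusted p = 0.0535 from limma) is a fold of 6.41. Its second probe set, at 3.61, 3.44 and 3.73 against 5.36, 5.82 and 4.33, differed by 1.58, and the third, at 2.87, 2.90 and 2.81 against 3.18, 3.01 and 3.13, was near the bottom of the scale in both groups and differed by 0.25.

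CXCL8, also known as interleukin 8, stood at 4.59, 4.20 and 4.44 with DMSO and at 6.63, 8.25 and 5.37 with DAAD2. The DMSO arrays lay close together while the DAAD2 arrays spread over 2.88 log2 units, with array 2 highest and array 3 lowest. The difference was 2.34 (standard error 0.58, adjusted p = 0.127 from limma), 1.59 without DAAD2 array 2 and 3.03 without DAAD2 array 3. The other probe set of CXCL8 had the same order of arrays, 4.81, 6.39 and 3.82 against 3.32, 3.77 and 3.42 with DMSO, and a difference of 1.505. CXCL6, read by 1 probe set, stood at 4.32, 3.68 and 4.40 with DMSO and 5.86, 6.16 and 4.82 with DAAD2, a difference of 1.48 (standard error 0.33, adjusted p = 0.106 from limma).

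The genes of these chemokines lie next to each other on chromosome 4, in the order CXCL8, CXCL6, PF4V1, CXCL1, PF4, PPBP, CXCL5, CXCL3 and CXCL2, from chr4:73740569-73743716 (CXCL8) to chr4:74097040-74099195 (CXCL2) in GRCh38.p14. Within this row the higher genes were interspersed with genes that differed little. CXCL1, at 6.14, 6.09 and 6.33 with DMSO and 7.02, 7.85 and 6.21 with DAAD2, had a difference of 0.84, but its DAAD2 array 3 lay within the DMSO range. CXCL2 was at 4.48, 4.84 and 4.79 and 5.02, 5.65 and 4.48, so the groups overlapped, and its difference of 0.35 had a 95% interval from -0.23 to 0.94. CXCL3, at 3.75, 4.00 and 3.40 and 3.65, 3.81 and 3.75, differed by 0.03 (95% interval -0.31 to 0.37). The platelet chemokine genes PF4, PF4V1 and PPBP had differences of -0.21, -0.12 and -0.11. PF4 lay between 4.35 and 4.83 on the 6 arrays and PF4V1 and PPBP between 2.67 and 3.21, the latter 2 under the array median.

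The promoters of CXCL8, CXCL6, CXCL5, CXCL1, CXCL3 and CXCL2 are shown because they share 1 sequence whether or not the gene's level differed. Those of PF4, PF4V1 and PPBP were not looked at singly. Each line holds bases around the only match, on either strand, to GGAATTTCC, an NF-κB element (GGAAATTCC on the other strand), with the match in capitals, read 5′ to 3′ on the gene's strand from RefSeq promoters of GRCh38.p14 that span 250 bases before to 50 after the start. The windows are chr4:73740448-73740516 (CXCL8, plus strand), chr4:73836559-73836627 (CXCL6, plus), chr4:73869285-73869353 (CXCL1, plus), chr4:73998729-73998797 (CXCL5, minus), chr4:74038729-74038797 (CXCL3, minus) and chr4:74099234-74099302 (CXCL2, minus), all upstream of the annotated start.
CXCL8: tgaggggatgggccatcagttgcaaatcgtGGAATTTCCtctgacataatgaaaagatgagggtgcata
CXCL6: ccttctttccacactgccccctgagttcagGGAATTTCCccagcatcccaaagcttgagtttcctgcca
CXCL5: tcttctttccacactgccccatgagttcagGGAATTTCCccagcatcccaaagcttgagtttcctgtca
CXCL1: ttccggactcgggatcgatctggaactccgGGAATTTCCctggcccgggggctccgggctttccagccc
CXCL3: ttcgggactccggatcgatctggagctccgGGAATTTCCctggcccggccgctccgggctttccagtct
CXCL2: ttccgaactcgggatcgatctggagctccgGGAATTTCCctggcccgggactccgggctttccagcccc
The element was present in 129 of 27305 promoters (0.472%). It began 91 bases before the start in CXCL8, 89 in CXCL6, 90 in CXCL5, 78 in CXCL1 and CXCL3 and 77 in CXCL2. The windows of CXCL5 and CXCL6 were identical at 66 of 69 bases, and those of CXCL1 and CXCL3 at 62 of 69. Up to the end of the element, CXCL1 and CXCL2 shared 37 of 39 bases. CXCL5 and CXCL6, with differences of 2.68 and 1.48, held the element in near-identical surroundings, and CXCL2 and CXCL3, with 0.35 and 0.03, held it as well.

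Among 36 chemokines and NF-κB targets 7 were higher past both limits and 0 lower, with a median log2 difference of 0.19, against 1.65% and 0.329% of all genes and a median of -0.01. Besides CXCL5, CXCL8, CXCL6 and CXCL1 these were IL32, a cytokine, CCL20, a chemokine for dendritic cells and lymphocytes (0.85), and RELB, a subunit of NF-κB (0.71), of which CCL20 and RELB were chosen after their values were seen. IL32 stood at 5.97, 6.28 and 5.38 with DMSO and 7.32, 7.41 and 7.03 with DAAD2, a difference of 1.38 (standard error 0.21, adjusted p = 0.0766 from limma). Of the other members, the inhibitors NFKBIA and TNFAIP3, which NF-κB itself induces, had differences of 0.21 and 0.51, and the cytokine genes IL6, TNF and IL1B had -0.03, -0.19 and -0.19. The promoters of CCL20 and IL32 held 0 matches to the element. The list count was 10 without DAAD2 array 3, 5 or 6 without each other array and 6 after cyclic loess between the arrays. This list, like the others below, was chosen with earlier results of these data known. Part of its excess over all genes can therefore be built in.

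TUBA1A encodes an alpha-tubulin that is abundant in neurons. On its single probe set with that symbol alone it stood at 4.46, 4.59 and 4.43 with DMSO and 7.15, 8.07 and 6.19 with DAAD2. The DMSO arrays agreed within 0.16 log2 units, and the lowest DAAD2 array lay 1.60 above them. The difference was 2.64 (standard error 0.38, 95% interval 1.77 to 3.52, adjusted p = 0.0706 from limma), a fold of 6.25. The alpha-tubulin genes that dividing cells use most differed less: TUBA1B was at 13.03, 12.96 and 13.07 and 13.30, 13.49 and 13.32, a difference of 0.35, and TUBA1C differed by 0.39. Of 6 probe sets of TUBA1B the 5 bright ones differed by 0.35 to 0.41, and the sixth, under the array median, by -0.11. Probes of tubulin genes can share transcripts, since the paralogs are near-identical in sequence, so the split between them is uncertain.

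Among the beta-tubulins TUBB6 was higher past both limits, at 7.59, 7.68 and 7.77 with DMSO and 8.41, 8.65 and 8.16 with DAAD2 (difference 0.72). TUBB differed by 0.34, TUBB2B by 0.40, TUBB4B by 0.10, TUBB3 by 0.03 and TUBB2A by -0.05. Of 25 tubulins and tubulin-folding or tubulin-binding genes 3 were higher past both limits, TUBA1A, TUBB6 and the delta-tubulin TUBD1 (0.65), and 0 lower. The shares of all genes were 1.65% and 0.329%. The median of the tubulin list was 0.16. After cyclic loess 1 was higher past both limits, TUBA1A, with 2.56, and TUBB6 stood at 0.57. The median level of the list is 8.82, and all probe sets at 8 to 10 had a median of 0.15, so the list's median was near that of its level.

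Of the heat shock chaperones, HSPH1, a nucleotide exchange factor for HSP70, stood at 7.40, 7.50 and 7.83 with DMSO and 8.93, 9.13 and 8.59 with DAAD2. The groups were separated by 0.76 log2 units, and the difference was 1.31 (standard error 0.16, 95% interval 0.94 to 1.68, adjusted p = 0.0581 from limma). Its dimmer probe sets differed by 1.06 and 0.87, and on the latter DAAD2 array 1, at 5.67, lay within the DMSO range of 5.12 to 5.93. HSPA4L, a relative of HSPH1, was at 4.65, 4.57 and 4.82 and 5.30, 5.54 and 5.32 on its brighter probe set (difference 0.71) and at 4.21, 3.88 and 4.18 and 5.18, 5.85 and 5.67 on the other (difference 1.48).

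CHORDC1, a co-chaperone of HSP90, stood at 7.77, 7.38 and 8.04 with DMSO and 8.91, 9.15 and 8.47 with DAAD2, a difference of 1.12 (standard error 0.21, adjusted p = 0.0890 from limma). BAG3, a co-chaperone that hands misfolded protein to autophagy, stood at 6.57, 6.56 and 6.50 and 7.40, 7.33 and 7.19, a difference of 0.76 (standard error 0.09, adjusted p = 0.0581 from limma) with a range of 0.06 over the DMSO arrays and 0.21 over the DAAD2 arrays. HSP90AA1, the inducible HSP90, was the last of the 5 members past both limits, at 0.65, chosen after its value was seen. Of 33 heat shock chaperones and co-chaperones 5 were higher and 0 lower past both limits, against 1.65% and 0.329% of all genes. A difference above 0 was held by 29 of the 33 (9603 of all 19775 genes), and the list's median was 0.32. The median level of the list is 8.23, however, and all probe sets at 8 to 10 had a median of 0.15. After cyclic loess the list's median was 0.23, and 5 were still past both limits. Some classical members did not differ by as much. DNAJB1, the main HSP40, stood at 9.26, 9.41 and 9.15 and 9.45, 9.60 and 9.36 (difference 0.20). HSPB1, the small heat shock protein HSP27, differed by 0.00. HSPA6, the strictly inducible HSP70, differed by -0.07, at a mean level of 4.16, near the array median of 3.75. The HSP70 genes HSPA1A, HSPA1B and HSPA8 were not among the 33 measured. The list's count of genes higher past both limits was 9 without DAAD2 array 3 and 4 to 7 without each other array.

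The CHORDC1 promoter is shown because it carried a run of heat shock elements, 3 overlapping matches on either strand to GAANNTTCNNGAA within 23 bases that end 38 bases before the start. The window lies at chr11:90223057-90223139 on the minus strand, upstream of the start, with the run in capitals.
CHORDC1: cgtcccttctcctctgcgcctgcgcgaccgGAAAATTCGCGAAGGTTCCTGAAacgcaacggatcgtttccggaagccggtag
Such a match was held by 0.487% of the 27305 promoters. The promoters of HSPH1, HSPA4L, BAG3, HSP90AA1 and DNAJB1 held 0 in the same span, which says only that these letters are not in those windows.

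The chaperonin CCT, which folds tubulin and actin, and its partner prefoldin formed a list of 13 genes with 0 past both limits and a median of 0.33. The DAAD2 arrays lay above the DMSO arrays for 9 of them, as for CCT3 at 10.95, 10.96 and 11.10 against 11.46, 11.39 and 11.32 (difference 0.38) and VBP1, a prefoldin subunit, at 9.07, 9.06 and 9.15 against 9.54, 9.45 and 9.42 (0.38). These genes are bright, with a median level of 10.2, and 31.5% of all probe sets over a level of 10 were separated in the same way, so the count of 9 is to be read beside that share.

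In the unfolded protein response of the endoplasmic reticulum 2 of 31 genes were higher past both limits and 0 lower, at a median of 0.24. Of all genes 1.65% were higher and 0.329% lower. The median level of the list is 9.21, and all probe sets at 8 to 10 had a median of 0.15. DDIT3, the transcription factor CHOP, stood at 7.63, 7.64 and 7.50 with DMSO and 8.68, 8.24 and 8.32 with DAAD2, a difference of 0.82 (standard error 0.13, adjusted p = 0.0766 from limma). HSPA5, the lumenal chaperone BiP, stood at 11.95, 12.18 and 12.16 and 12.81, 12.67 and 12.69, a difference of 0.63 (standard error 0.10, adjusted p = 0.0770 from limma). The sensors ATF6, ERN1 and EIF2AK3 had 0.46, 0.45 and 0.50. Other targets of the same sensors gave -0.17 for XBP1, -0.03 for DNAJB9 and -0.07 for HSP90B1. After cyclic loess 1 of the list was past both limits, DDIT3, with a difference of 0.67 against 0.56 for HSPA5, and 1 was past them without DAAD2 array 1 or without DMSO array 1.

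The amino acid response driven by ATF4, which shares DDIT3's upstream pathway, had 0 of 23 genes past both limits, at a median of -0.01. ATF4 itself had -0.03 and TRIB3, a target that CHOP and ATF4 share, -0.18. NUPR1, a stress-induced target of ATF4, was at 10.23, 10.46 and 10.03 with DMSO and 9.94, 9.48 and 9.80 with DAAD2, a difference of -0.50 (adjusted p = 0.183 from limma). CANX, the lumenal lectin chaperone calnexin, differed by 0.29 on its brightest probe set, and by 0.48, 0.41 and 0.67 on the others above the array median.

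Targets of YAP and the TEAD factors, a growth programme of the Hippo pathway, held 8 of 25 genes higher past both limits and 0 lower, with a median of 0.31. Past both limits 1.65% of all genes were higher and 0.329% lower. The median level of the list is 6.15. All probe sets at 6 to 7 had a median of 0.15, and 5.16% of them were higher past both limits. MYOF, a membrane repair protein, stood at 4.00, 4.55 and 4.28 with DMSO and 5.29, 5.66 and 4.86 with DAAD2 (difference 0.99, standard error 0.21, adjusted p = 0.0990 from limma). Its groups were apart by 0.31 log2 units, but the other 2 probe sets of MYOF, both dim, differed by -0.04 and -0.01. ANKRD1, a nuclear ankyrin protein and a classical YAP target, stood at 3.56, 3.33 and 3.49 and 4.19, 4.95 and 3.84 (0.87), under or near the array median with DMSO.

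AMOTL2, an angiomotin that feeds back on YAP, stood at 6.01, 5.45 and 5.86 with DMSO and 6.36, 7.21 and 6.04 with DAAD2 (0.76), and DAAD2 array 3 was within 0.03 of the highest DMSO array. CAVIN2, a coat protein of caveolae, stood at 5.24, 5.00 and 5.13 and 5.95, 6.05 and 5.58 (0.74). The other 4, chosen after their values were seen, were CRIM1 (0.72), AJUBA (0.66), LATS2, a kinase that restrains YAP (0.63), and TGFB2 (0.63). The 2 targets most used as readouts were not among them: CCN2 stood at 8.45, 8.45 and 8.44 and 8.52, 9.10 and 8.31 (difference 0.20, 95% interval -0.22 to 0.61) and CCN1 at 8.66, 8.42 and 8.49 and 8.30, 9.26 and 8.19 (difference 0.07, 95% interval -0.51 to 0.64).

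The YAP targets differed most on DAAD2 array 2. The list's median above the DMSO mean was 0.65 on that array, against 0.22 and 0.20 on arrays 1 and 3, and without array 2 the count past both limits was 2 in place of 8. It was 5 without DMSO array 1 or without DMSO array 2, 10 without DMSO array 3 and 6 after cyclic loess, with 1 lower and a median of 0.16. The element GGAATG (both strands), which TEAD factors bind, was in 14.0% of promoters, so that it sets few genes apart. It was found 2 times in ANKRD1, 3 in CCN2 and 1 in CAVIN2 and THBS1, and 0 times in MYOF, AMOTL2 and AJUBA.

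**Figure D2:**
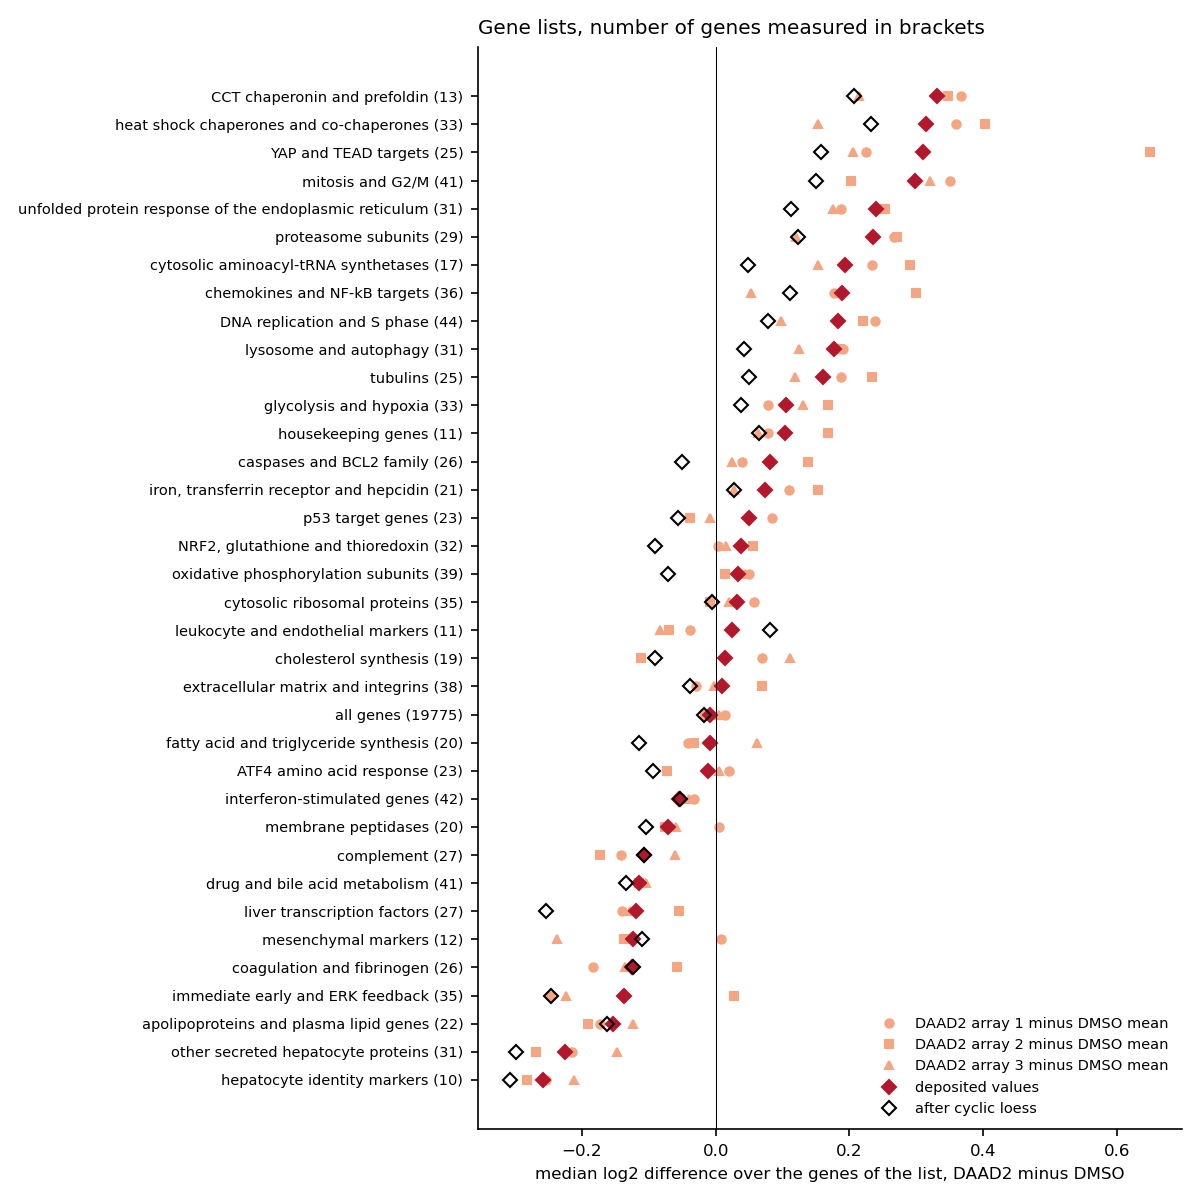
Median log2 difference over the genes of each list, DAAD2 minus DMSO, for the deposited values (filled diamonds), after cyclic loess (open diamonds) and for each DAAD2 array against the DMSO mean (small symbols). Chaperone and mitosis lists lie right of the median of all genes (-0.01) on every DAAD2 array, hepatocyte markers left of it, and the YAP list reaches 0.65 on array 2.

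Genes that ERK signalling induces were past both limits in both directions. DUSP6, a phosphatase that dampens ERK and that ERK induces, stood at 10.00, 10.05 and 10.04 with DMSO and 9.16, 9.26 and 9.16 with DAAD2. The DMSO arrays agreed within 0.05 log2 units and the DAAD2 arrays within 0.11, and the difference was -0.84 (standard error 0.09, 95% interval -1.04 to -0.64, adjusted p = 0.0581 from limma). Its other probe sets differed by -0.76 and -0.76, so that all 3 read nearly the same size. FOSB, an AP-1 subunit, stood at 5.35, 4.96 and 5.20 and 4.31, 4.76 and 4.53, a difference of -0.64.

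In the other direction PHLDA1, another early gene, stood at 6.69, 6.83 and 6.61 with DMSO and 7.53, 8.57 and 6.82 with DAAD2, a difference of 0.93 that was 0.46 without DAAD2 array 2. Of its 6 probe sets 3 were higher past both limits, up to 1.41, while the second brightest, at 7.17, 6.87 and 6.97 against 6.32, 7.06 and 6.77, differed by -0.29. CCND1, cyclin D1, stood at 5.27, 5.56 and 5.80 with DMSO and 6.65, 6.62 and 5.92 with DAAD2 on one probe set (difference 0.85) and differed by 1.01 on the other. Of 35 immediate early and ERK feedback genes 2 were thus higher and 2 lower past both limits, against 1.65% and 0.329% of all genes. The median of the list was -0.14, and 1 member was lower without DAAD2 array 1 or DMSO array 1. After cyclic loess 1 was higher and 3 lower. The other feedback genes SPRY2, SPRY4, ETV4 and ETV5 had -0.33, -0.09, -0.39 and -0.28. The list's median was -0.25 and -0.22 on DAAD2 arrays 1 and 3 and 0.03 on array 2.

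The mitosis list held 2 of 41 genes higher past both limits and 0 lower, against 1.65% and 0.329% of all genes. In a culture measured as a whole, more cells in a phase and more RNA per cell cannot be told apart. A difference above 0 was seen for 40 of the 41, against 9603 of all 19775 genes, at a median of 0.30, but the median level of the list is 9.17 and the median over all probe sets at 8 to 10 was 0.15. After cyclic loess the list's median was 0.15 and 1 gene was past both limits, KIF23. KIF23, a kinesin of the midbody, stood at 6.57, 6.49 and 6.42 with DMSO and 7.41, 7.10 and 7.25 with DAAD2 (0.76, standard error 0.11, adjusted p = 0.0687 from limma). BUB1, a kinase of the spindle checkpoint, stood at 8.36, 8.51 and 8.69 and 9.37, 8.93 and 9.22 (0.65, or 0.50 after cyclic loess, under the fold limit). On these 2 genes DAAD2 array 2 was the lowest of the DAAD2 arrays, unlike on the chemokines, and the list's medians by array were 0.35, 0.20 and 0.32.

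Of 44 genes of DNA replication 40 had a difference above 0 and 1 was past both limits, CDC6, which loads the replicative helicase, at 6.52, 6.21 and 6.84 against 7.19, 7.34 and 7.18 (0.71). Of all 19775 genes 9603 had a difference above 0 and 1.65% were higher past both limits. The list's median was 0.18 at a median level of 8.26, and all probe sets at 8 to 10 had a median of 0.15. After cyclic loess 0 passed, with 0.57 for CDC6 and a list median of 0.08. Genes of the p53 response gave 0 of 23 past both limits in either direction, at a median of 0.05. Its best-known member CDKN1A, which encodes the cell cycle inhibitor p21, stood at 9.49, 9.44 and 9.38 with DMSO and 8.58, 8.97 and 9.13 with DAAD2, a difference of -0.54 (standard error 0.14, adjusted p = 0.142 from limma). Of 26 caspases and BCL2 family genes 0 passed both limits, at a median of 0.08. CFLAR, which blocks caspase-8 activation, differed by 0.49, HRK, a pro-apoptotic BH3-only gene, by -0.46, CASP8 by 0.27, CASP9 by 0.03 and CASP6 by 0.08.

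On the lower side APOM, an apolipoprotein of high-density lipoprotein, stood at 9.23, 9.88 and 9.31 with DMSO and 8.15, 8.06 and 8.19 with DAAD2. The lowest DMSO array lay 1.05 log2 units above the highest DAAD2 array, and the difference was -1.34 (standard error 0.16, 95% interval -1.72 to -0.97, adjusted p = 0.0581 from limma), a 2.53-fold lower level. Its second probe set, at 9.12, 9.32 and 8.82 against 7.71, 7.76 and 8.09, differed by -1.23. APOC3, an inhibitor of triglyceride clearance, stood at 10.54, 10.73 and 10.46 and 9.72, 9.95 and 9.96, a difference of -0.70 (standard error 0.11, adjusted p = 0.0770 from limma).

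Of 22 apolipoproteins and plasma lipid genes these 2 were lower past both limits and 0 higher, against 0.329% and 1.65% of all genes. A difference above 0 was held by 5 of the 22, and the median was -0.15. The count of 2 was the same without each array in turn and after both quantile normalization and cyclic loess. APOA1 had -0.45, APOC1 -0.38, APOA2 -0.20 and APOB -0.10. APOE, on its brightest probe set, had 0.98, which rests on 1 array: the DMSO arrays stood at 9.06, 12.13 and 11.73 and the DAAD2 arrays at 12.11, 11.78 and 11.96, and the difference was 0.02 without DMSO array 1. The next APOE probe set differed by 0.18, with a range of 0.26 over the DMSO arrays.

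MEP1A, a subunit of the metalloprotease meprin, stood at 9.65, 9.62 and 9.67 with DMSO and 8.42, 8.46 and 8.71 with DAAD2. The DMSO arrays agreed within 0.06, and the difference was -1.12 (standard error 0.10, 95% interval -1.35 to -0.88, adjusted p = 0.0535 from limma). ANPEP, the aminopeptidase CD13, stood at 7.20, 7.41 and 7.23 and 6.32, 6.31 and 6.32, with the 3 DAAD2 arrays within 0.01 of each other and a difference of -0.96 (standard error 0.10, adjusted p = 0.0535 from limma). HPN, the serine protease hepsin, stood at 9.98, 10.05 and 10.03 and 9.15, 9.55 and 9.54, a difference of -0.60. These were the 3 of 20 membrane peptidases lower past both limits, with 0 higher, against 0.329% and 1.65% of all genes. The list's median was -0.07, and 3 of its members were lower after cyclic loess (131 of all 19775 genes).

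Some other secreted products were lower too. CFB, complement factor B, stood at 7.58, 7.75 and 7.39 with DMSO and 6.54, 6.41 and 6.94 with DAAD2, a difference of -0.94 (standard error 0.15, adjusted p = 0.0770 from limma), and C8A, part of the membrane attack complex, differed by -0.62. They were the 2 of 27 complement genes lower past both limits, with 0 higher, against 0.329% and 1.65% of all genes. The median of the complement list was -0.11. After cyclic loess 4 of its members were lower (131 of all 19775 genes), and 1 without DAAD2 array 1 or DMSO array 2. ANG, the secreted ribonuclease angiogenin, stood at 9.12, 9.38 and 8.79 and 8.30, 8.01 and 8.32, a difference of -0.89. S100A9, a calcium-binding protein, stood at 7.42, 8.03 and 7.56 and 6.68, 6.47 and 6.95, a difference of -0.97.

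Among 31 other secreted hepatocyte proteins 1 was lower past both limits and 1 higher, against 0.329% and 1.65% of all genes. The list's median was -0.23, and 4 members were lower after cyclic loess and 3 without DMSO array 3. The higher one was CP, the copper carrier ceruloplasmin, at 7.004, 6.92 and 7.38 with DMSO and 8.12, 8.62 and 7.76 with DAAD2 (difference 1.07, standard error 0.21, adjusted p = 0.0941 from limma). Its next probe sets differed by 0.87 and 0.68, and the dimmest by 0.26. The lower one was A1BG, at 3.98, 4.73 and 4.26 and 3.71, 3.37 and 3.57 (-0.77), with DAAD2 levels under the array median. Of 26 genes of coagulation 1 was higher past both limits, HABP2, a plasma protease, at 4.35, 4.36 and 4.61 with DMSO and 5.85, 6.24 and 5.11 with DAAD2 (1.29), and 0 were lower, at a median of -0.12.

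Of the 10 hepatocyte identity markers 0 passed both limits, 2 had a difference above 0 and 8 had every DAAD2 array under every DMSO array, as 9.99% of all probe sets and 6.97% of those over a level of 10 had; the median was -0.26, or -0.31 after cyclic loess. SERPINA1, the main protease inhibitor of plasma, stood at 13.21, 13.23 and 13.13 with DMSO and 12.85, 12.92 and 12.73 with DAAD2 (-0.36), and TTR, a carrier of thyroid hormone, at 9.49, 9.53 and 9.46 and 9.13, 9.18 and 9.21 (-0.32). The fetal liver protein AFP stood at 8.40, 8.45 and 8.73 and 8.24, 8.08 and 7.98 (-0.43, standard error 0.12, adjusted p = 0.158 from limma). ALB differed by -0.06, with levels so near the top of the scale that a difference there may be compressed. Vimentin (VIM) overlapped between the groups, at 10.60, 10.31 and 9.81 and 10.74, 11.01 and 10.57 (0.53).

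Among 27 liver transcription factors 1 was lower past both limits and 0 higher, at a median of -0.12. The shares of all genes were 0.329% and 1.65%. The lower factor was NR0B2, the bile acid-responsive repressor SHP, at 9.51, 9.94 and 9.49 with DMSO and 8.91, 9.02 and 8.90 with DAAD2 (difference -0.70). FOXA3, just under the fold limit and chosen after its value was seen, stood at 8.66, 8.76 and 8.49 and 8.07, 8.07 and 8.01 (-0.58). In drug and bile acid metabolism 2 of 41 genes were higher and 1 lower past both limits, at a median of -0.11, and after quantile normalization or cyclic loess 0 were higher. The efflux pumps ABCG2 and ABCB1 had 0.69 and 0.62, with overlapping groups in both, and the monooxygenase FMO5 had -0.65, at 7.54, 7.33 and 7.37 against 6.46, 6.87 and 6.94. SLC22A7, an anion transporter of hepatocytes, stood at 6.07, 6.43 and 5.73 with DMSO and 4.70, 4.92 and 5.56 with DAAD2 (-1.02), and AGXT, a peroxisomal aminotransferase, at 7.73, 8.26 and 7.77 and 6.96, 6.85 and 7.54 (-0.80).

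Several pathways gave few or no members past both limits. It was 0 of 32 genes of NRF2 and glutathione (median 0.04), 0 of 19 of cholesterol synthesis (0.01), 0 of 39 of oxidative phosphorylation (0.03), 0 of 35 ribosomal proteins (0.03), 0 of 42 interferon-stimulated genes (-0.05) and 0 of 31 of lysosome and autophagy (0.18). It was also 0 of 17 cytosolic aminoacyl-tRNA synthetases (0.19), 0 of 11 housekeeping genes (0.10), 0 of 12 mesenchymal markers (-0.12) and 0 of 11 markers of leukocytes and endothelium (0.02). Of 29 proteasome subunits and activators 1 was higher, the activator PSME4 (0.59), at a median of 0.23; of 33 genes of glycolysis and hypoxia 1 was higher, PFKFB3 (0.82, groups overlapping), at 0.11; and of 20 genes of fatty acid and triglyceride synthesis 1 was lower, DGAT2, which makes triglyceride, at 6.79, 6.64 and 6.62 against 6.04, 5.96 and 6.18 (-0.63; list median -0.01). Of 38 genes of extracellular matrix and integrins 1 was higher, THBS1 (0.84), and 1 lower, the matrix metalloprotease MMP11 (-0.92; median 0.01), and of 21 iron genes 1 was higher, CP again (0.07). After cyclic loess all genes counted 184 higher and 131 lower, PSME4 was under the fold limit (0.44), and 2 genes each were lower among the liver transcription factors, coagulation genes and genes of fatty acid synthesis.

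Other genes of the largest differences belonged to no list. On the higher side HDAC9, a histone deacetylase, stood at 4.50, 4.55 and 4.57 with DMSO and 6.15, 6.76 and 5.30 with DAAD2 (1.53), while its other 4 probe sets differed by -0.04 to 0.22. PRSS23, a serine protease, stood at 5.07, 5.04 and 4.49 and 6.37, 6.91 and 5.69 (1.46), and SLC12A2, a chloride cotransporter, at 6.92, 6.76 and 7.05 and 8.20, 8.46 and 7.51 (1.14). DKK1, a secreted inhibitor of Wnt signalling and among the brightest genes past both limits, stood at 10.90, 11.07 and 11.59 and 12.36, 12.74 and 11.83 (1.13). SEMA3A, CEP15 and EIF5A2 had 1.20, 1.12 and 1.11.

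On the lower side SMLR1 stood at 9.60, 9.76 and 9.61 with DMSO and 8.51, 8.69 and 8.93 with DAAD2 (-0.94, with -1.06 on its second probe set). MYCN, a MYC family transcription factor, stood at 6.57, 6.49 and 7.14 and 5.71, 6.01 and 5.71 (-0.93), and DLK1, a marker of fetal liver progenitors, at 9.82, 9.72 and 9.64 and 8.77, 8.76 and 8.99 (-0.89). KCNMA1, a potassium channel, stood at 5.24, 4.58 and 4.26 and 2.99, 3.99 and 4.11, so that its difference of -0.997 was -0.64 without DAAD2 array 1. NYNRIN, CLRN3 and LOC101926907 had -0.93, -0.91 and -0.90.

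Several probe sets of a gene gave the same direction more often the brighter they were. Of 15407 pairs of probe sets of 5962 genes, both with a mean above the array median of 3.75, 68.6% differed in the same direction, and Pearson's r between the 2 log2 differences, with each pair entered both ways, was 0.41. Among pairs both above a level of 5 the share was 78.3% (7610 pairs, r 0.53), above 7 it was 84.5% (2836 pairs, r 0.67) and above 9 it was 85.9% (696 pairs, r 0.79). Over all levels it was 59.3% of 42435 pairs. These are descriptions across probe sets that share the same 6 arrays, not replicates, and after cyclic loess the first of these shares was 64.5%. Without probe sets ending in _x_at or _s_at it was 65.5% (r 0.37). At a level of 8 to 10, 36.8% of all probe sets had every DAAD2 array higher and 4.04% every one lower. Such a common shift can raise agreement between any 2 bright probe sets, and how much of the rise it gives was not tested.

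Past both limits, 77 genes were higher on 2 or more probe sets, 8 of them on 3 or more, and 7 genes were lower on 2 or more, 2 of them on 3. The number of genes with probe sets past both limits in opposite directions was 0. Of 432 genes higher on at least 1 probe set, with 2 or more probe sets above the array median, 322 (74.5%) had all such probe sets higher, and of 42 lower genes 34 (81.0%) had all lower; these shares include the probe set that put the gene there. All 3 probe sets of HSPH1, HS6ST2, DUSP6 and TNFSF10 were past both limits, as were both of CXCL8, HSPA4L, CCND1, APOM, SMLR1 and GAS6.

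HS6ST2, a heparan sulfate sulfotransferase, stood at 8.79, 8.76 and 8.89 with DMSO and 9.72, 9.67 and 9.31 with DAAD2 on its brightest probe set, and its 3 differences were 0.75, 0.74 and 0.92. TNFSF10, the death ligand TRAIL, stood at 7.56, 7.55 and 7.26 and 6.79, 6.66 and 6.64, and its 3 differences were -0.76, -0.66 and -0.60. GAS6, a ligand of AXL, stood at 7.70, 7.79 and 7.49 and 6.91, 6.87 and 7.13, with differences of -0.69 and -0.72. CAMK2N1, an inhibitor of CaMKII, stood at 8.63, 8.17 and 8.74 and 7.93, 7.49 and 7.66 (-0.82). It differed by -0.64 and 0.02 on its dimmer probe sets.

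**Figure D3:**
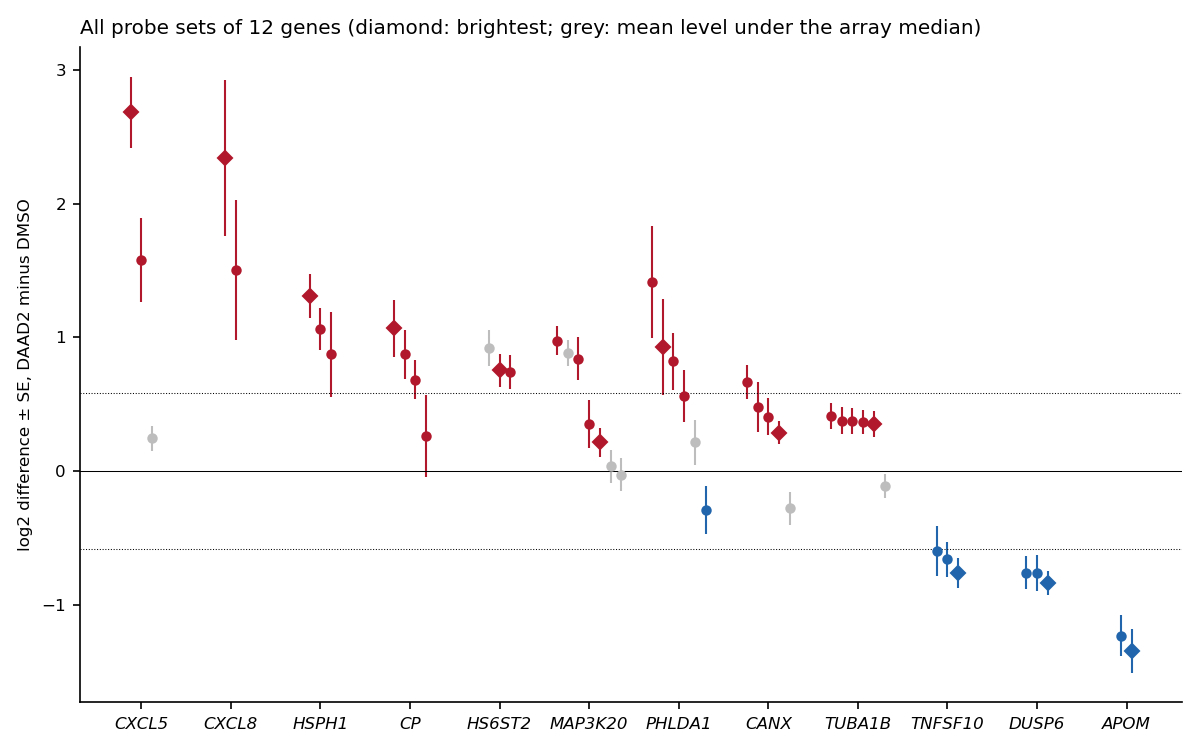
Log2 difference with its standard error on every probe set of 12 genes (diamond, brightest; grey, mean under the array median; dotted lines, a 1.5-fold difference). The probe sets of DUSP6, TNFSF10, HS6ST2 and APOM lie together, whereas those of MAP3K20 and PHLDA1 spread from near or under 0 to 0.98 and 1.41.

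Other genes split by probe set. MAP3K20, the ribosome stress kinase ZAK, differed by 0.22 on its brightest probe set, at 6.49, 6.72 and 6.80 against 6.83, 6.97 and 6.86. On its next, at 6.13, 6.29 and 6.004 against 7.23, 7.07 and 7.06, it differed by 0.98, with 0.84 and 0.89 on 2 more, so 3 of 7 were higher past both limits. MAP7, a microtubule-associated protein, differed by 0.33 on the brightest and by 1.09 and 0.72 on the others. LIMCH1, an actin-binding regulator of myosin, differed by 1.05, 0.75 and 1.01 on 3 probe sets and 0.02 on the fourth, which was under the array median. THBS1, a secreted matrix protein, differed by 0.84, 1.05 and 0.57 on the 3 brightest of 7. Whether such splits follow transcript isoforms was not tested.

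In 14 genes a bright probe set varied by over 1.5 log2 units among the DMSO arrays while another of the same gene, also above a level of 8, varied by under 0.5. The low array was DMSO array 2 in 9 of them and DMSO array 1 in 5. HSP90AA1 was one: a probe set with a difference of 0.95 stood at 11.03, 9.52 and 11.63 on the DMSO arrays, and another, with 0.65, varied by 0.35. Sizes read from 1 probe set can rest on such arrays, which is why the values by array are given here.

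The share of probe sets past both limits and the median difference both depended on the level. For means up to 3, from 3 to 4 and from 4 to 5 the median log2 difference was -0.05, -0.06 and -0.05, and for 5 to 6, 6 to 7, 7 to 8, 8 to 10 and over 10 it was 0.07, 0.15, 0.16, 0.15 and 0.08. Higher probe sets made up 0.16% of those at 3 to 4 and 5.16% of those at 6 to 7, and lower ones 0.0376% and 0.498%. Separation with every DAAD2 array higher applied to 1.31% of probe sets up to a level of 3 and to 36.8% at 8 to 10. Quantile normalization and cyclic loess brought all these medians to between -0.03 and 0.03, and then 429 probe sets were higher and 227 lower (quantile) or 503 and 193 (loess), against 775 and 110. So the direction of small differences, and medians of lists of bright genes, depend on this scaling. The 30 genes of the largest differences kept their direction under both. They were picked for differences far larger than these shifts, so no other outcome was likely.

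**Figure D4:**
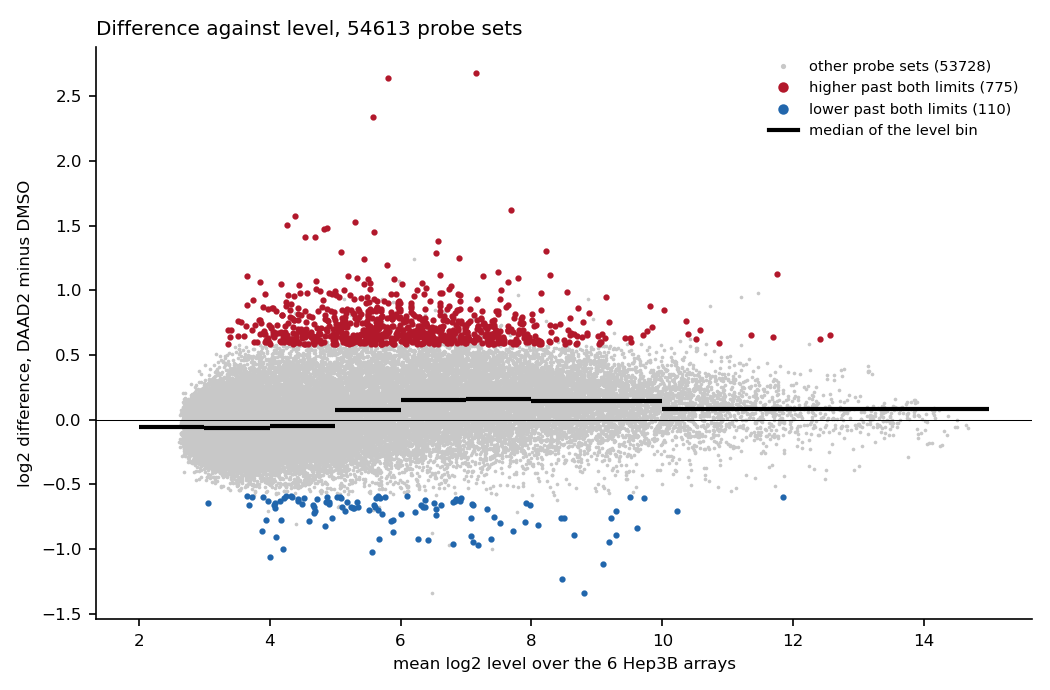
Log2 difference, DAAD2 minus DMSO, against the mean level over the 6 Hep3B arrays for 54613 probe sets, in red or blue where past both limits, with the median of each level bin as a black bar. The median lies under 0 up to a level of 5 and above 0 from there on, up to 0.16.

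The DAAD2 arrays did not differ from DMSO to the same extent. Among the 775 higher probe sets the median above the DMSO mean was 0.73, 0.83 and 0.56 on DAAD2 arrays 1, 2 and 3, and array 2 was the highest of the 3 in 59.6% and array 3 the lowest in 65.5%. Among the 110 lower ones the medians were -0.81, -0.71 and -0.60. The probe sets were chosen by these same values. Without DAAD2 array 3 the counts were 1180 higher and 212 lower and without DMSO array 3 they were 1203 and 198, whereas without DAAD2 array 2 they were 589 and 156 and without DMSO array 1 945 and 201. On CXCL8, CXCL1, TUBA1A, PHLDA1, ANKRD1 and AMOTL2 array 2 was highest and array 3 lowest, while DUSP6, ANPEP and APOM were nearly equal on all 3 DAAD2 arrays.

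The DAAD2 effect in Hep3B was also set against that in SNU449 by the interaction term of a limma fit over all 12 arrays, which asks whether the lines differ in their response to the doses given to each. At an adjusted p under 0.05 the effect was higher in Hep3B on 661 probe sets (1.21%) and lower on 435 (0.797%). Of the 775 probe sets higher past both limits in Hep3B 165 were among the former, and of the 110 lower ones 25 among the latter. These probe sets were chosen for their Hep3B difference, which is part of the interaction, so shares above those of all probe sets are built in. In Hep3B alone 0 probe sets passed an adjusted p under 0.05. An effect higher in Hep3B can also rest on a lower level in SNU449, as for CCND1, with 0.85 in Hep3B and -1.26 in SNU449. For CXCL5 these were 2.68 and -0.13. CXCL8, CXCL6 and CXCL1, with 2.34, 1.48 and 0.84 in Hep3B, had 1.73, 1.78 and 0.86 in SNU449 (interaction adjusted p = 0.749, 0.829 and 0.990 from limma), and CXCL2, with 0.35, had 1.84 (0.0280). BAG3, with 0.76, had -1.28 (1.52e-05). Since the doses were 2 μM and 20 μM, line and dose cannot be told apart.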

How the data were processed

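Expression was measured on Affymetrix U133 Plus 2.0 arrays; the 6 Hep3B arrays were the subject and the 6 SNU449 arrays served the interaction and a fit of all 12. The deposited values are log2 intensities that the authors made by RMA (background correction, quantile normalization and probe set summary), per the labels, and in BRB Array Tools, per the study's methods. Of 54675 probe sets 62 control ones were left out. Genes were named from the platform annotation: 41091 of the 54613 tested had 1 symbol, 1801 several and 11721 none, and only the first kind was named. No column of values was left unused (0). Intensities on arrays carry no counts, so precision rests on the number of arrays.

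Groups came from the labels. DAAD2 and DMSO arrays were compared with limma 3.58.1 in R 4.3.3 (group means, eBayes, Benjamini-Hochberg over all probe sets), which was tested on simulated data first. The genes named are, per direction, the 15 largest differences past both limits with separate groups and a level above the array median, up to 20 genes with 2 or more probe sets past both limits, up to 4 members of each of 35 gene lists (2 where 0 passed), and genes tied to the study's assays, 110 in all. Other members of the lists, and genes next to a named one in family or position, were added after their values were seen. The comparison, gene lists and genes were chosen with earlier results of these data known. Replicate numbers were not taken as pairs: correlations of same-numbered deviations were -0.23, -0.27 and 0.09. Alternatives were median centring, quantile normalization, cyclic loess, a filter on dim probe sets, other variance models, array weights, all 12 arrays, a replicate block, other thresholds and leaving out each array. Promoters and gene positions are from RefSeq, GRCh38.p14. Python 3.11.15 with pandas 2.3.3, numpy 2.4.6, scipy 1.17.1 and matplotlib 3.10.9 made the summaries and figures.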

Additional observations from a re-analysis of the deposited data

Results flagged for a closer look

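For 33 of the 110 genes named by the rule the log2 difference after DAAD2 in Hep3B minus that in SNU449 passed an adjusted p under 0.05 in limma's interaction test over all 12 arrays, with 20 higher in Hep3B and 13 lower; of all 54613 probe sets 1.21% and 0.797% did so. Hep3B had 2 μM and SNU449 20 μM, so line and dose cannot be told apart, and most of these genes were chosen for their difference in Hep3B, which is part of the interaction, so the share says nothing about them as a group. Among the higher ones CXCL5 and TUBA1A had 2.81 and 2.75, with -0.13 and -0.10 in SNU449 itself. The cell cycle genes CCND1, CDC6, KIF23 and ARHGAP19 had 2.11, 1.43, 1.29 and 1.09, and in SNU449 they stood at -1.26, -0.72, -0.53 and -0.37.

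Of the chaperone and stress genes BAG3, HSPH1, HSPA5 and VBP1 had interactions of 2.05, 1.19, 0.93 and 0.63. For the membrane and cytoskeleton genes SLC12A2, CAVIN2, TUBB6 and LIMCH1 they were 1.79, 1.69, 1.13 and 0.94. The remaining higher ones were PABIR2 with 1.66, PRSS23 with 1.62, CEP15 with 1.21, HS6ST2 with 1.21, SLC7A1 with 0.80 and FARSB with 0.80.

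Among the lower ones the complement gene CFB had -2.05, at -0.94 in Hep3B and 1.11 in SNU449, and ANG, TNFSF10 and NUPR1 had -1.64, -1.62 and -1.51 with 0.75, 0.85 and 1.01 in SNU449. The apolipoprotein genes APOM and APOC3 had -1.54 and -0.82, and MMP11, MYCN, FMO5 and MEP1A had -1.34, -1.27, -1.19 and -1.05. NYNRIN, CLRN3 and SMLR1 had -0.95, -0.88 and -0.87.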

How the results depend on the processing

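Counts at an adjusted p under 0.05 were 0 higher and 0 lower, and also without moderation, with the dim probe sets filtered out and with the replicate number as a block. They were 68 and 9 with median centring, 1 and 4 with quantile normalization, 1 and 4 with cyclic loess, 113 and 24 with a variance trend, 2 and 3 with robust eBayes, 7 and 4 with array weights and 123 and 31 with all 12 arrays. Leaving out each array in turn gave 0 to 5 higher and 0 to 1 lower, the 5 and 1 without DAAD2 array 3. Past both limits the 775 higher and 110 lower became 429 and 227 with quantile normalization, 503 and 193 with cyclic loess, and 46 and 5 with a fold over 2, and leaving out each array gave 589 to 1203 and 125 to 212. Probe sets with every DAAD2 array below every DMSO array (5457) were 2816 with median centring, 2443 after the filter and 7420 to 9939 without each array, and those above (5996) were 7762 to 8701 without each array. A group with fewer arrays separates more easily, so these counts without each array could only stay or rise. The share of pairs in the same direction was 59.3% at all levels and 65.0% to 68.9% without each array. ZNF207 turned to -0.0205 with quantile normalization and -0.0474 with cyclic loess. Interactions higher in Hep3B (661) were 416 with cyclic loess, 164 without moderation, 1377 with array weights and 211 to 1602 without each array, the extremes without SNU449 DMSO array 3 and SNU449 DAAD2 array 2. The lower ones (435) were 173, 722 (no moderation, array weights) and 223 to 719, the extremes without Hep3B DAAD2 array 1 and SNU449 DAAD2 array 2. With the replicate number as a block, a pairing that the arrays did not bear out, interactions were 234 and 186 and the counts past both limits in Hep3B 772 and 112. Each cause was not tested. Of the named genes' values 2 reversed, both of ZNF207; since none passed the adjusted p, no call of theirs could be lost. List medians moved by over the spread between DAAD2 arrays in 21 of 35 lists with cyclic loess, 21 with quantile normalization and 15 with median centring. Counts for 10 lists were recomputed after seeing the data.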

Other observations

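Some single genes not described so far, chosen after their values were seen and standing for no group, were higher past both limits on 2 or more probe sets. HNRNPL, an RNA-binding protein, was so on both of its probe sets (0.64 and 0.85). CDK6, a kinase of the cell cycle, was so on 3 of its 7, which ranged from -0.12 to 0.83 in all. MAD2L1, a spindle checkpoint protein, was so on 2 of its 3, which ranged from 0.42 to 0.84 in all. GTPBP4 was so on 2 of its 3, which ranged from -0.08 to 0.77 in all.

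Among bright probe sets that varied between the DMSO arrays while another of the same gene did not, TOP2A stood at 10.43, 8.94 and 10.99 and TPR at 8.55, 6.09 and 9.07, both lowest on DMSO array 2, whereas LSM4 stood at 8.03, 10.43 and 9.52 and RPL37A at 6.997, 9.77 and 9.31, lowest on DMSO array 1. The tighter probe sets of these genes varied by 0.12 to 0.41 on the same arrays.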
